A study of Mus musculus with 15 samples.

Results

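The genes described here are 53 mouse genes of mitosis and chromosome segregation, from the kinases and cyclins that start mitosis to the proteins that part the daughter cells. They were chosen by symbol from a list of names, and all 53 were found among the 17493 genes of the count tables. All 53 passed the filter on low counts, which kept 10831 genes, and the lowest mean over the libraries was 8.2 reads for a member. Their messenger RNA was measured in 15 libraries of CD8+ T cells taken from spleen and lymph nodes of female OT-1 mice, strain C57BL/6-Tg(TcraTcrb)1100Mjb/Crl. Every group carries this transgenic T cell receptor, which recognises a peptide of ovalbumin. The libraries form 5 groups of 3. One group is unstimulated cells at 0 h. The other 4 groups were kept with a stimulus for 8 h or for 22 h. Immunofilaments (IF), labelled IF-pMHC(SIIT)/IL-2, are synthetic filaments bearing peptide-MHC and interleukin-2, and were given at 5 ng/ml. The second stimulus was Flt-3Ligand dendritic cells (DC) loaded with SIITFEKL peptide, at 20000 per well. The labels name interleukin-2 for the filaments and not for the dendritic cells. Wells held 50000 T cells, and live CD8+ cells without CD103 were sorted before lysis. The age of the mice is not given in the sources used here. The titles tag the replicates Don1, Don2 and Don3 in every group, and values below are listed in that order as replicates 1 to 3. The tag is not spelled out in the labels, which do not say whether libraries with the same tag come from the same animal. If Don stands for donor, replicates are separate animals and same-tagged libraries are pairs. Otherwise p-values measure just the spread between these samples, which may be technical. Fits with the tag as a block are given where they change a call.

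In mitosis the kinase Cdk1 with its cyclins starts chromosome condensation, kinetochores attach chromosomes to the spindle, the spindle checkpoint holds back anaphase until all are attached, and the central spindle then guides cytokinesis. In most cell types messenger RNA of these genes is low in resting cells and rises in late S, G2 and M phase. A pair of elements is known from many of their promoters: the CHR (cell cycle genes homology region), bound by the DREAM and MMB complexes, and the CCAAT box, bound by NF-Y. Naive CD8+ T cells rest before antigen, grow first after stimulation and divide later.

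The promoter stretches below belong to the 11 members that passed the threshold in a comparison and have an entry in the promoter table; Aurkb, Spc24 and Smc4 passed and have none. Each runs from 170 bases before to 30 bases after the annotated start of transcription, 5′ to 3′ on the gene's own strand, from RefSeq on GRCm38.p6. Capitals mark matches, on either strand, to the CHR (TTTGAA or TTCGAA), the CCAAT box (CCAAT) and an E2F site (TTTGGCGC or TTTCGCGC). Cdk1, Top2a, Mki67, Bub1, Kif15 and Mad2l1 were members that rose between 8 h and 22 h with DC, Smc2 and Ncapd2 are condensin subunits that were higher at 22 h with DC than before stimulation, Racgap1 and Kif23 fell at 8 h, and Hmmr differed between the stimuli at 22 h.
Cdk1 (chr10:69352883-69353082, minus strand): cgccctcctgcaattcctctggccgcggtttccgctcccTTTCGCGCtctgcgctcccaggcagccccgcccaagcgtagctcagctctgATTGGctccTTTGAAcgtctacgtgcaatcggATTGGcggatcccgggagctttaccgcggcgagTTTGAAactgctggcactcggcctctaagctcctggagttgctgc
Top2a (chr11:99024160-99024359, minus strand): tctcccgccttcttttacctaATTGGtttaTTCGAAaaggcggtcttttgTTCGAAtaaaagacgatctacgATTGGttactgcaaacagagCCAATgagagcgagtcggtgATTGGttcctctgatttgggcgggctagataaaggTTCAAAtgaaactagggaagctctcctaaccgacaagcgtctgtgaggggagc
Mki67 (chr7:135716350-135716549, minus strand): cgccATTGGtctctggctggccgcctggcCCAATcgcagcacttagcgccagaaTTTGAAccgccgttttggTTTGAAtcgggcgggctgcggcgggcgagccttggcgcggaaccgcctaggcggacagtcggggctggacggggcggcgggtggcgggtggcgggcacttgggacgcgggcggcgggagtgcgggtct
Bub1 (chr2:127831830-127832029, minus strand): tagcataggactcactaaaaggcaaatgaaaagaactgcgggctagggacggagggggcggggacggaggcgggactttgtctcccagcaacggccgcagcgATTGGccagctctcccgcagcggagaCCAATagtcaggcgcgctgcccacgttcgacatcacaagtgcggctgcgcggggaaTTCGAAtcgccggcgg
Kif15 (chr9:122950911-122951110, plus strand): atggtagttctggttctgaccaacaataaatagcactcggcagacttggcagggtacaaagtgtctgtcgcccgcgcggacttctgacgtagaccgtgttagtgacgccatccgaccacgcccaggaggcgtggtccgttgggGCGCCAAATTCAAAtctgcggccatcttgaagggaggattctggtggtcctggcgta
Mad2l1 (chr6:66535051-66535250, plus strand): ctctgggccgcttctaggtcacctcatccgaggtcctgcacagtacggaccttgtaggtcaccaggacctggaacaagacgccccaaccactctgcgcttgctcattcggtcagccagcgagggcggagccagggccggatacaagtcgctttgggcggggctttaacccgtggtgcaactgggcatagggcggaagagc
Smc2 (chr4:52439051-52439250, plus strand): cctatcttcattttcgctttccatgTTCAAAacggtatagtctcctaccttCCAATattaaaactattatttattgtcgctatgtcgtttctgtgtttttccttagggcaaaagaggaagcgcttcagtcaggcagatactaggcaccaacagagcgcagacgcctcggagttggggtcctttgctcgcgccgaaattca
Ncapd2 (chr6:125191557-125191756, minus strand): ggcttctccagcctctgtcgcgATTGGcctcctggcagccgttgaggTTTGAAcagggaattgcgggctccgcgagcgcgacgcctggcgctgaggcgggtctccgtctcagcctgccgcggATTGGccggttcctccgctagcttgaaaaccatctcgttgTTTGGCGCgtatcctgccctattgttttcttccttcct
Racgap1 (chr15:99651627-99651826, minus strand): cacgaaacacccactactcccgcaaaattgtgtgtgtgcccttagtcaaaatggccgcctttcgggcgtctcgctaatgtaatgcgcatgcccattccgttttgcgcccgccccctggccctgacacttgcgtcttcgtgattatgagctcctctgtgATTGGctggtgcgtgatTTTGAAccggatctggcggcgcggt
Kif23 (chr9:61946770-61946969, minus strand): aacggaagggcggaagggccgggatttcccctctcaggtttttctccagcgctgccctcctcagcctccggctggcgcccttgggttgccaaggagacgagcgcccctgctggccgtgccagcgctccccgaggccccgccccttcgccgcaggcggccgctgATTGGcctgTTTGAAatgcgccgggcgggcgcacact
Hmmr (chr11:40733408-40733607, minus strand): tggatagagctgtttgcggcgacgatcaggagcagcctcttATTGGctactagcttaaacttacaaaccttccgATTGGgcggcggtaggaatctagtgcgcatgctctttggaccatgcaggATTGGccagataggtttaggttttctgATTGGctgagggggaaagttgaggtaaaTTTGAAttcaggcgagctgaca

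Cdk1, Top2a, Bub1, Kif15, Smc2, Racgap1, Kif23 and Hmmr each hold a CHR match close to the start. Counting the first transcribed base as 1, the match begins at -15 in Cdk1, at -23 in Top2a, at -19 in Kif15, at 3 in Kif23, at 6 in Racgap1, at 9 in Hmmr, at 15 in Bub1 and at 27 in Smc2, where it runs past the end of the printed stretch and is not in capitals. In Mki67 the matches lie farther upstream, at -116 and -98, as does that of Ncapd2, at -123. Mad2l1 holds none of the 3 motifs, and Kif15 holds a CHR and an E2F match and no CCAAT box. The promoter table, with entries of 300 bases (250 before to 50 after the start), matched 45 of the 53 members; Ccna2, Aurkb, Kif20a, Tpx2, Spc24, Incenp, Smc4 and Pbk had no entry. A gene with several entries was counted as holding a motif if any of them did. A CHR match was present in 34 of the 45 (75.6%), against 21.7% of all 27025 genes in the table and 20.2% of its protein-coding genes. A CCAAT box was present in 33 (73.3%, against 41.1% of all genes), and 2 or more in 23 (51.1%, against 13.3%). Both elements together stood in 29 (64.4%, against 8.61%). An E2F site was found in 3 members, Cdk1, Kif15 and Ncapd2 (6.67%, against 0.929%). Among 99 other mitosis genes with an entry, a CHR was present in 45.5%, a CCAAT box in 53.5% and both in 29.3%, between the members and all genes in each case. Among 43 DNA replication genes with an entry the order was different, with a CHR in 23.3% and an E2F site in 27.9%. A CCAAT box was present in 60.5% of them, 2 or more in 41.9%, and a CHR together with a CCAAT box in 14.0%. Positions were counted in 1 entry a gene, because Ect2 and Prc1 each have overlapping ones. Of the 48 CHR matches in member promoters, 32 (66.7%) began within 50 bases of the start, as did 24.7% of the 6066 matches over all genes, where that window takes up 33.3% of the length. Bases were shared by matches to different motifs in 1 case. A match describes these letters and is not evidence of a bound factor.

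**Figure D1:**
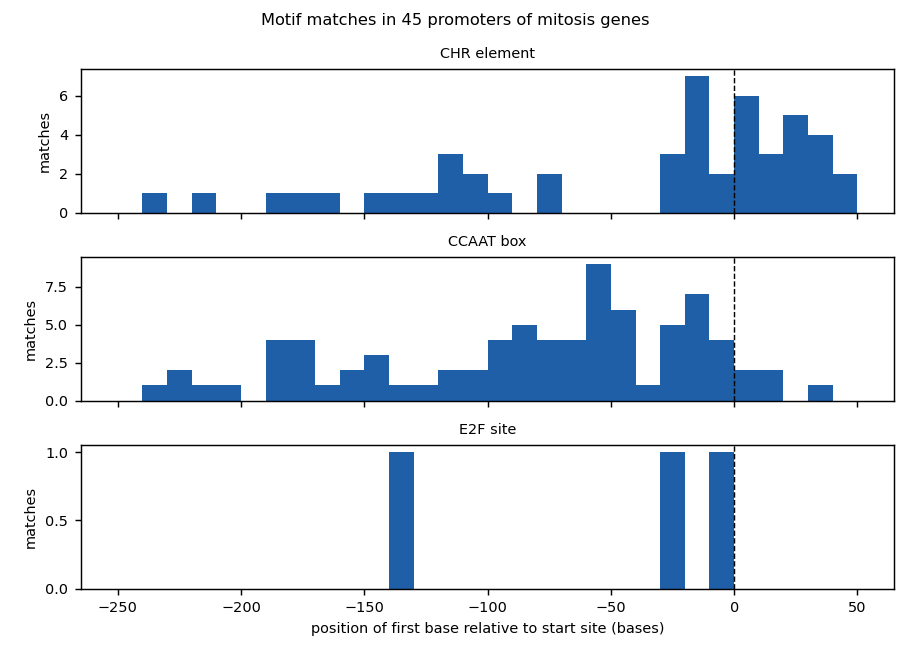
Position of motif matches in the 45 member promoters (x axis, bases from the annotated start, dashed line; y axis, number of matches in bins). CHR matches gather around the start, with 32 of 48 inside 50 bases on either side, and E2F matches occur in 3 promoters.

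The libraries held between 2892874 and 19806730 counts. IF 22 h replicates 2 and 3 stood apart in mitochondrial ribosomal RNA, which took 0.179% and 0.146% of their counts and between 1.82% and 4.49% elsewhere. The upper end was DC 22 h replicate 3, against 2.76% and 1.95% in DC 22 h replicates 1 and 2. The 6 T cell genes found in the tables were present in every library and summed to 6151 to 6814 CPM in unstimulated cells and 2743 to 4581 CPM in the stimulated groups. All 6 were below the unstimulated range in every 8 h library and every DC 22 h library, and 4 of 6 in every IF 22 h library. The 20 dendritic cell genes summed to 650 to 1550 CPM in unstimulated cells, 211 to 478 with IF and 849 to 1238 with DC at 8 h, and 377 to 632 with IF and 469 to 638 with DC at 22 h. Of these 20, Flt3, Zbtb46, Fscn1 and Ccl22 were above the unstimulated range in all 6 DC libraries, and 6 were below it in all of them (Itgax, Xcr1, Cst3, H2-Ab1, Itgam and Wdfy4). At 8 h with IF, 0 were above the range in all 3 libraries and 7 below. At 22 h with IF, where no dendritic cells were given, Zbtb46, Ccl22 and Sirpa were above it in all 3 and 5 were below. Zbtb46 was at 0 counts in all unstimulated and IF 8 h libraries, at 0.120 to 0.408 CPM with IF at 22 h and at 0.442 to 2.28 CPM with DC. Fscn1 lay between 72.9 and 168 CPM in the DC libraries, at 5.83, 21.5 and 43.8 CPM with IF at 22 h and at 6.75 CPM or below in unstimulated cells. The 6 myeloid and neutrophil genes found summed to 8.31 to 22.3 CPM in unstimulated cells and to at most 2.96 CPM in every stimulated library. The 7 B cell genes found summed to 20.2 to 24.8 CPM in unstimulated cells, 21.5 to 41.8 CPM with IF at 22 h and 5.75 to 14.96 CPM with DC at 22 h. The part of these RNAs in the results was not tested. In bulk RNA, fewer dividing cells and less of a messenger per cell cannot be told apart. CPM is a share of each library, so a lower value need not mean fewer copies per cell.

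Summed over the 53 members, the normalised read count (CPM, counts scaled to library totals adjusted by TMM) was 1006, 1140.2 and 1118 in unstimulated cells. It was 925, 986 and 993 after 8 h with IF, and 894, 747 and 941 after 8 h with DC. At 22 h the sums were 1268, 987 and 1047 with IF and 1843, 2624 and 1083 with DC. Thus the 8 h libraries lay below all unstimulated libraries, and DC replicates 1 and 2 at 22 h lay above all other libraries, whereas DC replicate 3 at 22 h lay within the unstimulated range. Some of these places rest on Smc4, which alone supplied between 161 and 518 CPM. Without it the unstimulated sums ran from 845 to 958 CPM, the 8 h sums from 570 to 748 CPM, and the 22 h sums were 750, 754 and 865 CPM with IF and 1402, 2367 and 727 CPM with DC. DC replicate 3 and IF replicates 1 and 2 at 22 h then lay below the unstimulated range, and DC replicates 1 and 2 were still the highest.

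**Figure D2:**
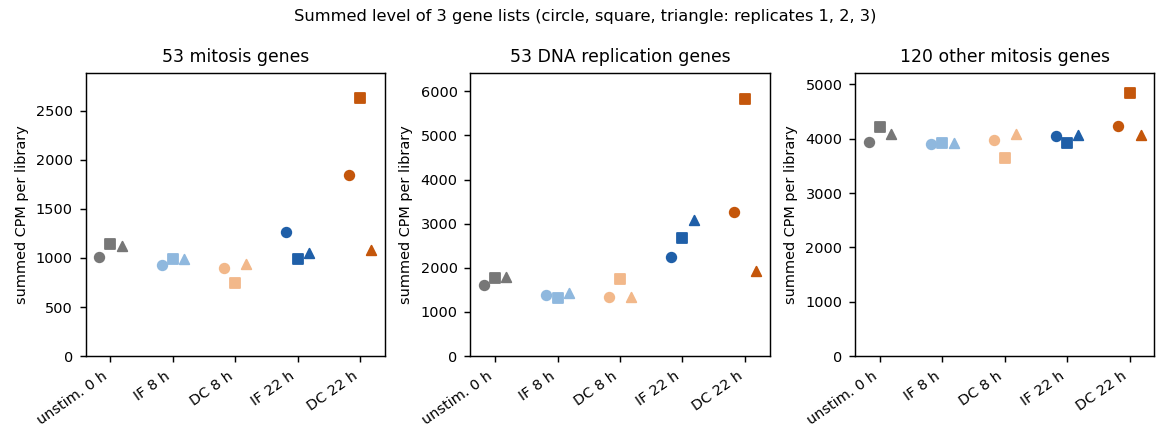
Summed CPM per library (y axis, linear from 0) for the 53 members, 53 DNA replication genes and 120 other mitosis genes, by group (x axis), with replicates 1, 2 and 3 as circle, square and triangle. The 3 DC libraries at 22 h spread from 1083 to 2624 CPM for the members and from 1938 to 5820 CPM for the replication genes.

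The spread between the 3 DC libraries at 22 h ran through nearly the whole list. Replicate 2 was the highest of the 3 in 47 of 53 members, and replicate 3 the lowest in 50. Over all 10831 genes tested, replicate 2 was the highest in 39.2% and replicate 3 the lowest in 32.6%. The median difference between replicates 2 and 3, on the log2(CPM + 1) scale, was 1.77 over the members, 1.498 over the replication genes, 0.63 over 119 other mitosis genes and -0.04 over all genes. Against the unstimulated range, 38 members lay above it in replicate 1, 47 in replicate 2 and 8 in replicate 3, where 27 lay below. Over all genes tested, 31.9%, 35.7% and 29.9% lay above the range in replicates 1, 2 and 3 and 28.7% below it in replicate 3. Of the 53 replication genes, 31 (58.5%) lay above the unstimulated range in DC replicate 3 and 5 (9.43%) below. The widest gaps belonged to Pbk, a mitotic kinase (9.67, 25.5 and 1.79 CPM), and Ccnb1, which encodes cyclin B1 (8.31, 25.8 and 2.31 CPM); pseudogenes resemble the 3′ end of both. At the other end, Smc4 (441, 257 and 356 CPM) and the centromeric histone gene Cenpa (51.1, 44.2 and 48.7 CPM) were not highest in replicate 2. At 8 h, DC replicate 2 was the highest of the 3 in 11 members (20.8%, against 36.1% of all genes), so the order of the members was not the same at both times. Of the 53 replication genes, DC replicate 2 was the highest in 34 (64.2%) at 8 h and in 51 (96.2%) at 22 h.

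**Figure D3:**
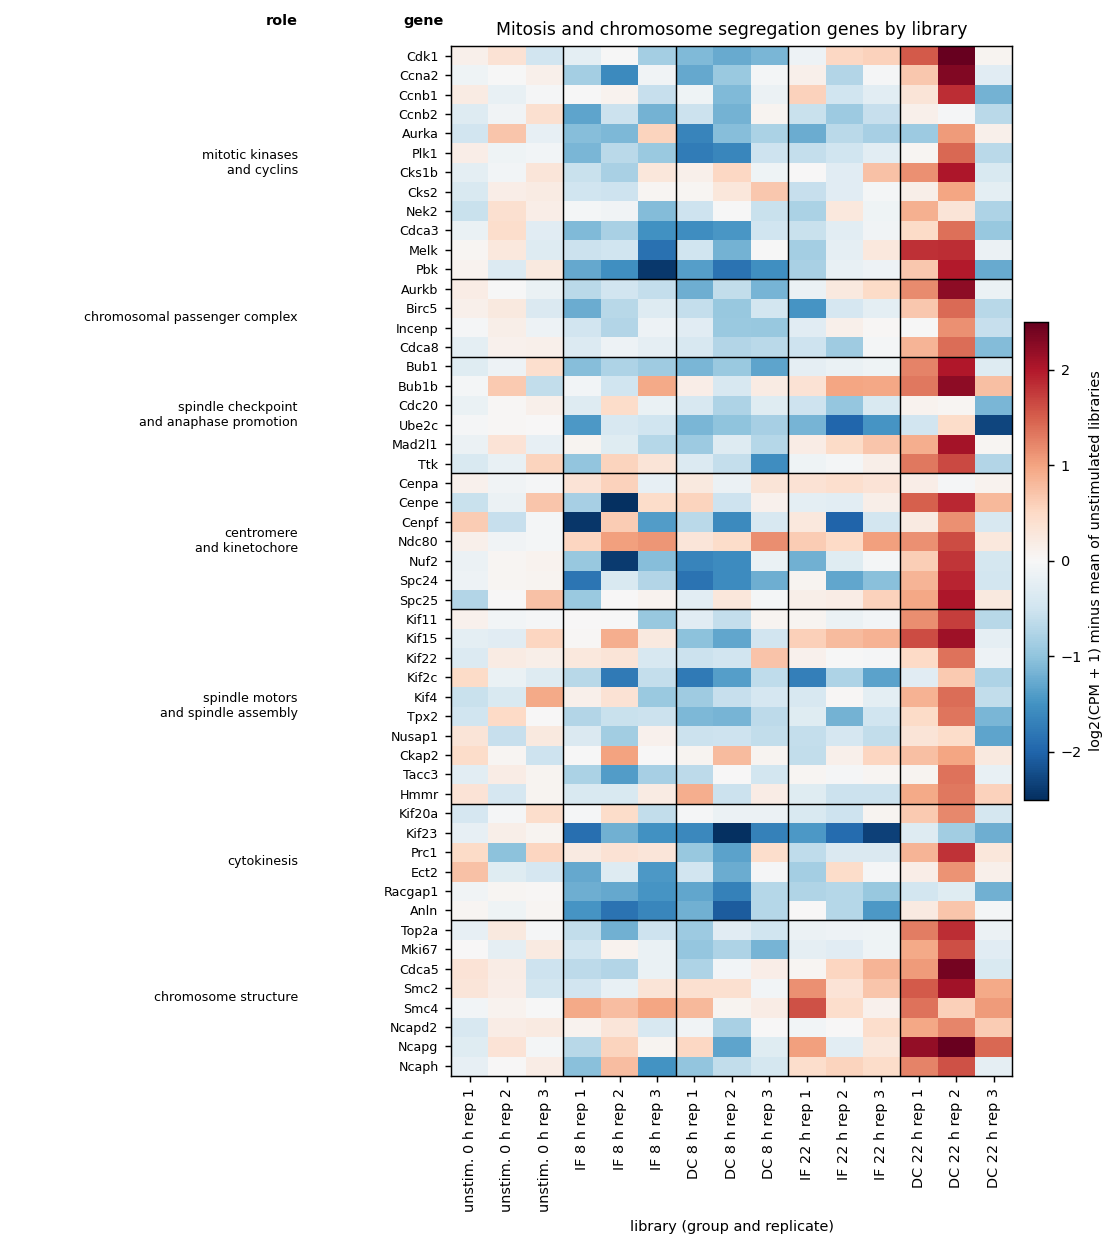
Each row is a member, grouped by role, and each column a library; colour is log2(CPM + 1) minus the mean of the unstimulated libraries (red higher, blue lower, values beyond the scale at its end colour). Red fills the columns of DC 22 h replicates 1 and 2 with few gaps, while DC 22 h replicate 3 and most 8 h columns are pale or blue.

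Between 8 h and 22 h with DC, 9 of 53 members rose and 0 fell (adjusted p under 0.05 in edgeR's quasi-likelihood test), where 0.379% of all genes rose and 0.102% fell. Log2 fold changes are given with a standard error (SE), which is the fold change divided by the square root of its F statistic. It rests on the spread over all 15 libraries, not just on that of the groups compared. The 9 were Cdk1, Mki67, Aurkb, Spc24, Bub1, Kif15, Top2a, Mad2l1 and Ncapd2. The log2 fold change was positive in 52 of 53 members, with a median of 1.48 against 0.00 over all genes. Fitted on the DC groups alone, 0 of the 9 passed (adjusted p from 0.222 for Cdk1 and Spc24 to 0.32 for Top2a), and 0% of all genes did. At an unadjusted p under 0.05, 39 members were higher (4.75% of all genes), 24 without DC 22 h replicate 2 (5.74%), and in 19 members both groups did not overlap (6.88% of all genes). DESeq2 called 19 higher (1.3% of all genes). The count depended on single libraries. Without DC 22 h replicate 3 it was 23, including all 9, where 1.01% of all genes rose. It was 1 without DC 22 h replicate 1 or 2 (0.126% and 0.117% of all genes). Without DC 8 h replicate 1 or 2 it was 0 in each case (0% and 0.0982%), and without DC 8 h replicate 3 it was 1 (0.161%). Without DC 22 h replicate 2 the median was 1.02. Same-numbered DC libraries of both times deviated together, and with the replicate number as a block 6 of the calls were kept, while Kif15 (adjusted p = 0.0568), Spc24 (adjusted p = 0.0564) and Ncapd2 (adjusted p = 0.0738) were not. With the block fitted on the DC groups alone, a fit chosen after seeing the data, Spc24 (adjusted p = 0.0317) and Ncapd2 (adjusted p = 0.0418) passed and Kif15 (adjusted p = 0.0866) did not.

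Against unstimulated cells, 5 members rose at 22 h with DC and 0 fell, where 3.41% of all genes rose and 4.35% fell. These were Smc2, Cdk1, Ncapd2, Top2a and Smc4, of which 4 belong to the chromosome structure genes. The median was 0.97 against 0.04 over all genes, 23 members were higher at an unadjusted p under 0.05 (11.4% of all genes) and 2 lower (10.8%), and in 8 members both groups did not overlap, with DC higher (12.8% of all genes). The 23 became 7 without DC 22 h replicate 2 (9.38% of all genes) and 37 without DC 22 h replicate 3 (12.9%). DESeq2 called 11 higher (5.38% of all genes). Without DC 22 h replicate 3, 18 members passed, 4 of them among the 5, where 4.45% of all genes were higher. The number was 2 without DC 22 h replicate 1 or 2 (2.33% and 2.05% of all genes), and it was 1 without any of the 3 unstimulated replicates (1.55% to 1.76%). Without DC 22 h replicate 2 the median was 0.35. Fitted on those groups alone, the calls of Cdk1 (adjusted p = 0.0883) and Top2a (adjusted p = 0.122) were lost.

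After 8 h with IF, 2 members fell, Racgap1 and Kif23, and 0 rose, where 4.72% of all genes fell and 3.04% rose. After 8 h with DC, 2 members fell, also Racgap1 and Kif23, and 0 rose, where 4.07% of all genes fell and 2.75% rose. Both comparisons use the same unstimulated libraries. Without IF 8 h replicate 1, 1 member passed with IF (2.47% of all genes fell). With the replicate number as a block, Smc4 also passed with IF, as a rise (adjusted p = 0.047). The median over the members was -0.40 with IF (all genes 0.02) and -0.67 with DC (all genes 0.04). At an unadjusted p under 0.05, 10 members were lower with IF (12% of all genes) and 16 with DC (10.9%). DESeq2 called 1 higher (4.85% of all genes) and 5 lower (6.87%) with IF, and 6 lower with DC (6.35%). Direct comparison of the stimuli at 8 h called 0 members by edgeR (0.231% and 0.434% of all genes were higher and lower with IF) and 0 by DESeq2 (0.535% and 1.26%). At an unadjusted p under 0.05, 2 members were higher (3.16% of all genes) and 1 lower (5.11%).

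At 22 h with IF the median over the members was -0.21 against unstimulated cells (all genes 0.01). Of the members 1 fell, Kif23, and 0 rose, where 3.44% of all genes fell and 2.63% rose, and DESeq2 called 3 lower (5.63% of all genes). From 8 h to 22 h with IF, 0 members passed by edgeR (0.637% of all genes rose and 0.48% fell) and 0 by DESeq2 (1.95% and 1.43%). At an unadjusted p under 0.05, 5 were higher (7.95% of all genes), and the median was 0.35. Set against DC at 22 h, 52 of 53 members were lower with IF, with a median of -1.09 (all genes -0.02). Of these, 1 passed the threshold, Hmmr (not in a fit of those groups alone, adjusted p = 0.0611), where 1.2% of all genes were lower and 1.23% higher, and 29 had an unadjusted p under 0.05 (8.18% of all genes). In 7 members both groups did not overlap, with IF lower (9.11% of all genes). The 29 became 9 without DC 22 h replicate 2 (7.73% of all genes), where 48 of 53 members were lower with IF, and 17 without IF 22 h replicate 2 (5.1%). DESeq2 called 9 lower (2.8% of all genes). Leaving out DC 22 h replicate 3 raised the number to 14, where 1.13% of all genes were lower, and leaving out IF 22 h replicate 1 raised it to 3, where 4.65% were. It was 0 when any one of DC 22 h replicates 1 and 2 and IF 22 h replicates 2 and 3 was removed (0.438% to 1.23% of all genes). Without DC 22 h replicate 2 the median was -0.51. In the test of whether the difference between the stimuli changed from 8 h to 22 h, 0 members passed by edgeR (0% of all genes) and 1 by DESeq2 (0.175% of all genes with a negative interaction). At an unadjusted p under 0.05, 18 members had a negative interaction (3.95% of all genes), led by Mki67 (interaction -2.01 ± 0.49 on the log2 scale, adjusted p = 0.243). The number past the threshold became 2 on removal of IF 22 h replicate 1 (2.16% of all genes with a negative interaction) and 1 on removal of DC 22 h replicate 3 (0.0269%).

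**Figure D4:**
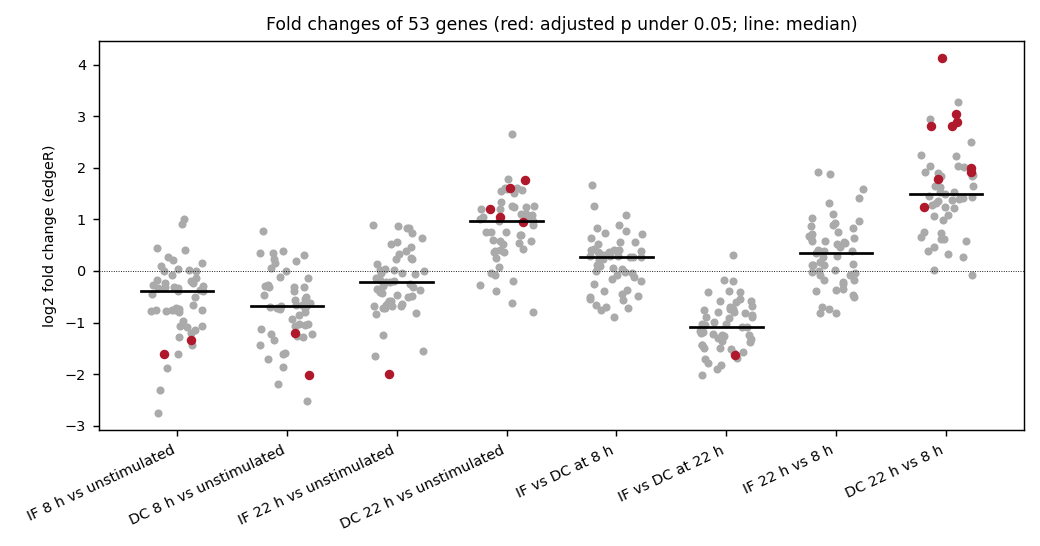
Log2 fold change (y axis) of each of the 53 members in 8 comparisons of 2 groups (x axis); red points have an adjusted p under 0.05 and black lines mark medians. The medians are -0.67 for DC at 8 h and 0.97 for DC at 22 h against unstimulated cells, and -1.09 for IF against DC at 22 h.

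Among the 12 mitotic kinase and cyclin genes, Cdk1, the kinase that drives entry into mitosis (chr10:69335146-69352938, minus strand), passed in both DC 22 h comparisons. It was measured at 33.2, 39.4 and 21.4 CPM in unstimulated cells, at 25.3, 30.2 and 16.3 CPM after 8 h with IF and at 13.6, 12.05 and 13.2 CPM after 8 h with DC. At 22 h it stood at 27.6, 44.1 and 46.1 CPM with IF and 89.6, 200.2 and 31.8 CPM with DC. The DC libraries were thus all low at 8 h, below every other library, and at 22 h replicate 2 was the highest of all while replicate 3 lay among the unstimulated values. With DC the mean went from 12.9 ± 0.796 CPM (SD, n = 3) at 8 h to 107 ± 85.6 CPM at 22 h, log2 fold change 3.05 ± 0.48, adjusted p = 0.0107. Against unstimulated cells (31.3 ± 9.13 CPM) it was higher at 22 h, log2 fold change 1.77 ± 0.45, adjusted p = 0.0242, with overlapping groups, and this call was lost without DC 22 h replicate 2 (adjusted p = 0.164) or without unstimulated replicate 1, 2 or 3 (0.0743, 0.0529 and 0.108). Cks2, a small partner of the Cdk kinases, had the highest mean level of the class and passed in no comparison. Its values were 61.7, 90.9 and 93.1 CPM unstimulated, 57.1, 56.0 and 82.8 and 82.8, 98.9 and 129.9 CPM at 8 h with IF and DC, and 53.9, 66.0 and 77.8 and 89.2, 160.0 and 68.0 CPM at 22 h. In the comparisons made, the groups overlapped except at 8 h, where IF was below DC by a margin smaller than the printed digits, log2 fold change -0.67 ± 0.29, adjusted p = 0.535. Cks2 shares its 3′ end with processed pseudogenes, whose reads could be counted with it. All 12 genes of the class were lower with IF than with DC at 22 h (median -1.06, all genes -0.02), 8 of them at an unadjusted p under 0.05 (8.18% of all genes), and 0 passed. The class median was -0.43 without DC 22 h replicate 2, 11 of 12 genes were lower and Ccnb1 was at 0.31. With that library left out, the 8 became 1 (7.73% of all genes). Dropping replicate 1, 2 or 3 of IF at 22 h gave 3, 4 and 5 genes (10.5%, 5.1% and 5.67% of all genes). Dropping replicate 1 or 3 of DC at 22 h gave 7 and 11 genes (6.86% and 8.26%). Pbk had the widest change between 8 h and 22 h with DC in the class without passing, log2 fold change 3.27 ± 0.73, adjusted p = 0.0638.

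The chromosomal passenger complex corrects wrong attachments of chromosomes and has 4 members here. Its kinase gene Aurkb (chr11:69045647-69051664, plus strand) was measured at 5.28, 4.52 and 3.96 CPM before stimulation, at 2.498, 2.98 and 2.68 CPM with IF and 1.39, 2.61 and 1.47 CPM with DC at 8 h, and at 4.05, 5.62 and 6.74 CPM with IF and 11.6, 25.1 and 4.02 CPM with DC at 22 h. All 8 h values were lower than all unstimulated ones, and DC 22 h replicates 1 and 2 were the highest libraries. Aurkb rose from 1.82 ± 0.683 CPM to 13.6 ± 10.7 CPM between 8 h and 22 h with DC, log2 fold change 2.89 ± 0.54, adjusted p = 0.0265. Incenp, the scaffold of the complex, had the highest mean level of the class and passed in no comparison. It read 27.2, 30.9 and 25.4 CPM before stimulation, 19.6, 16.2 and 25.2 and 22.5, 14.0 and 13.8 CPM at 8 h with IF and DC, and 22.7, 30.4 and 28.4 and 27.4, 62.0 and 18.2 CPM at 22 h. DC 22 h replicate 2 lay above the unstimulated range, the other 22 h libraries within or below it, and all 8 h libraries below it. Birc5 (survivin) and Cdca8 (borealin) complete the complex, and 4 of 4 genes were higher at 22 h than at 8 h with DC at an unadjusted p under 0.05 (4.75% of all genes), and 1 of 4 without DC 22 h replicate 2 (5.74%).

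The spindle checkpoint and the anaphase-promoting step are represented by 6 genes. Bub1, a checkpoint kinase at kinetochores (chr2:127801122-127831865, minus strand), had the widest change of any member between 8 h and 22 h with DC and also low counts. Its reads numbered 9, 9 and 12 in unstimulated cells, 2, 2 and 2 with IF and 3, 4 and 1 with DC at 8 h, and 12, 13 and 32 with IF and 50, 94 and 15 with DC at 22 h. On the CPM scale these were 1.32, 1.63 and 2.79, then 0.357, 0.663 and 0.536 with IF and 0.297, 0.497 and 0.147 with DC, and at 22 h 1.43, 1.55 and 1.63 with IF and 5.69, 10.4 and 1.28 with DC. All 8 h libraries were below all other libraries, and DC replicates 1 and 2 at 22 h stood above the rest. The change with DC was log2 fold change 4.12 ± 0.80, adjusted p = 0.0283, with 1 to 4 reads a library behind the 8 h level. Mad2l1, whose protein Mad2 holds back Cdc20 (chr6:66535390-66547220, plus strand), was the member of the class with the highest mean. It was measured at 33.8, 47.9 and 32.6 CPM before stimulation, at 39.6, 30.2 and 22.5 CPM with IF and 19.5, 29.9 and 22.5 CPM with DC at 8 h, and at 42.9, 52.6 and 61.1 CPM with IF and 70.9, 161 and 39.1 CPM with DC at 22 h. Both DC groups did not overlap, all 8 h DC values being below the unstimulated ones, and Mad2l1 rose with DC, log2 fold change 1.91 ± 0.39, adjusted p = 0.0313. Cdc20 and Ube2c act with the anaphase-promoting complex to end mitosis. Between 8 h and 22 h with DC their log2 fold changes were 0.28 (adjusted p = 0.922) and 0.62 (adjusted p = 0.793), and at 22 h with DC against unstimulated cells -0.27 (adjusted p = 0.74) and -0.40 (adjusted p = 0.661). Ube2c lay at 47.0, 49.0 and 48.2 CPM before stimulation and at 34.3, 66.6 and 8.97 CPM at 22 h with DC, so that replicates 1 and 3 were below and replicate 2 above. Part of the Ube2c 3′ end is repeated in other transcripts, and Cdc20 and Ube2c share exonic bases with Elovl1 and Tnnc2 on the opposite strand.

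Centromere and kinetochore genes number 7. Of these, 1 passed, in a single comparison, from 8 h to 22 h with DC, where 0.379% of all genes rose. Spc24, a subunit of the NDC80 complex that binds microtubules (chr9:21755442-21760303, minus strand), was measured at 15.7, 17.9 and 17.9 CPM unstimulated and at 4.10, 12.9 and 9.91 and 4.06, 5.09 and 6.75 CPM after 8 h with IF and DC. At 22 h the values were 18.1, 6.33 and 7.81 CPM with IF and 31.6, 67.0 and 12.2 CPM with DC. Again all 8 h values were below the unstimulated ones, and DC 22 h replicate 2 was the highest library, with replicate 3 below the unstimulated range. Spc24 rose between 8 h and 22 h with DC, log2 fold change 2.81 ± 0.55, adjusted p = 0.0283. A stretch of its 3′ end is repeated in many transcripts, so reads of other genes may be included. Cenpa, the histone variant that marks centromeres (chr5:30666777-30674830, plus strand), passed in no comparison. Its values were 48.9, 43.0 and 44.7 CPM before stimulation, 58.0, 68.0 and 39.4 and 53.8, 41.0 and 57.1 CPM at 8 h with IF and DC, and 58.3, 61.3 and 58.1 and 51.1, 44.2 and 48.7 CPM at 22 h. At 22 h all IF values were above all DC values, and Cenpa was the 1 member with a positive difference in that comparison, log2 fold change 0.30 ± 0.19, adjusted p = 0.505. With DC its change from 8 h to 22 h was -0.08 ± 0.19 on the log2 scale, the 1 negative value of the list.

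The spindle class holds 10 genes of motors and assembly factors. Kif15, a kinesin that helps keep the spindle bipolar (chr9:122951046-123018733, plus strand), was measured at 3.96, 3.80 and 7.45 CPM before stimulation, at 5.00, 9.95 and 5.89 CPM with IF and 1.88, 1.37 and 3.23 CPM with DC at 8 h, and at 7.86, 9.08 and 9.75 CPM with IF and 17.1, 24.3 and 4.02 CPM with DC at 22 h. At 8 h every DC value was below every IF value, and at 22 h DC replicate 3 was near the unstimulated level while replicates 1 and 2 were the highest libraries. It rose between the times with DC, log2 fold change 2.81 ± 0.55, adjusted p = 0.0283, and with IF the difference was log2 fold change 0.38 ± 0.52, adjusted p = 0.787. Hmmr, which encodes a microtubule-binding protein of the spindle poles (chr11:40701395-40733422, minus strand), was measured at 8.37, 4.52 and 6.75 CPM before stimulation, at 4.64, 4.64 and 7.50 CPM with IF and 12.9, 4.10 and 7.34 CPM with DC at 8 h, and at 5.00, 4.06 and 4.08 CPM with IF and 13.2, 17.5 and 10.0 CPM with DC at 22 h. The 3 DC libraries at 22 h were above the 3 IF libraries, and above all unstimulated ones. Hmmr was lower with IF than with DC, 4.38 ± 0.535 CPM against 13.6 ± 3.75 CPM, log2 fold change -1.63 ± 0.40, adjusted p = 0.0396; the adjusted p was 0.1 and 0.113 without DC 22 h replicate 1 or 2, and 0.185 and 0.176 without IF 22 h replicate 2 or 3. Nusap1, a spindle-associated protein gene, had the highest mean of the class and passed in no comparison. It read 20.3, 10.5 and 19.3 CPM unstimulated, 12.3, 8.29 and 17.4 and 10.7, 10.9 and 10.1 CPM at 8 h with IF and DC, and 10.4, 11.7 and 10.2 and 20.4, 22.6 and 5.81 CPM at 22 h. The groups overlapped, DC 22 h replicate 3 being the lowest library of all. Nusap1 shares exonic bases with Oip5 on the opposite strand.

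Cytokinesis genes, 6 in number, held the pair that fell at 8 h. This pair was 2 of the 53 members with either stimulus, where 4.72% of all genes fell with IF and 4.07% with DC. The falls were thus no more frequent among the members than among all genes, and both comparisons share the unstimulated libraries. Racgap1 and Kif23 encode both subunits of centralspindlin, the complex that bundles microtubules between the parting chromosomes. Racgap1 (chr15:99620496-99651656, minus strand) was measured at 103, 113 and 110.1 CPM before stimulation, at 45.7, 44.1 and 38.3 CPM with IF and 43.7, 32.8 and 66.1 CPM with DC at 8 h, and at 64.3, 66.2 and 55.6 CPM with IF and 79.0, 87.4 and 46.4 CPM with DC at 22 h. Every stimulated library was below every unstimulated one. From 109 ± 5.34 CPM unstimulated it fell to 42.7 ± 3.88 CPM at 8 h with IF, log2 fold change -1.34 ± 0.25, adjusted p = 0.00373, and to 47.5 ± 17.0 CPM with DC, log2 fold change -1.19 ± 0.25, adjusted p = 0.00699. At 22 h the differences from unstimulated cells were log2 fold change -0.81 ± 0.24, adjusted p = 0.0625 with IF and log2 fold change -0.62 ± 0.24, adjusted p = 0.143 with DC. Kif23 (chr9:61915905-61946774, minus strand) was measured at 28.04, 36.0 and 34.0 CPM before stimulation, at 8.03, 13.6 and 10.7 CPM with IF and 10.0, 4.60 and 9.40 CPM with DC at 8 h, and at 11.3, 7.77 and 5.67 CPM with IF and 25.8, 17.4 and 13.3 CPM with DC at 22 h. Again all 12 stimulated libraries were lower than the 3 unstimulated ones. Kif23 fell at 8 h with IF, log2 fold change -1.61 ± 0.35, adjusted p = 0.0108, and with DC, log2 fold change -2.02 ± 0.35, adjusted p = 0.00192, and at 22 h with IF, log2 fold change -2.00 ± 0.35, adjusted p = 0.00226. At 22 h with DC it was log2 fold change -0.79 ± 0.33, adjusted p = 0.164, and between the stimuli at 22 h log2 fold change -1.20 ± 0.34, adjusted p = 0.0777. The call of Kif23 at 8 h with IF was lost without IF 8 h replicate 1 (adjusted p = 0.057). With IF 22 h replicates 2 and 3, which stand apart in ribosomal RNA, both left out, the log2 fold change at 22 h with IF was -1.53 (adjusted p = 0.212) in a group of 1 library, whose spread is assumed to be that of the other groups. Anln, which encodes the contractile ring protein anillin, had the lowest log2 fold change of the list at 8 h with IF and did not pass, log2 fold change -2.75 ± 0.84, adjusted p = 0.0562.

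**Figure D5:**
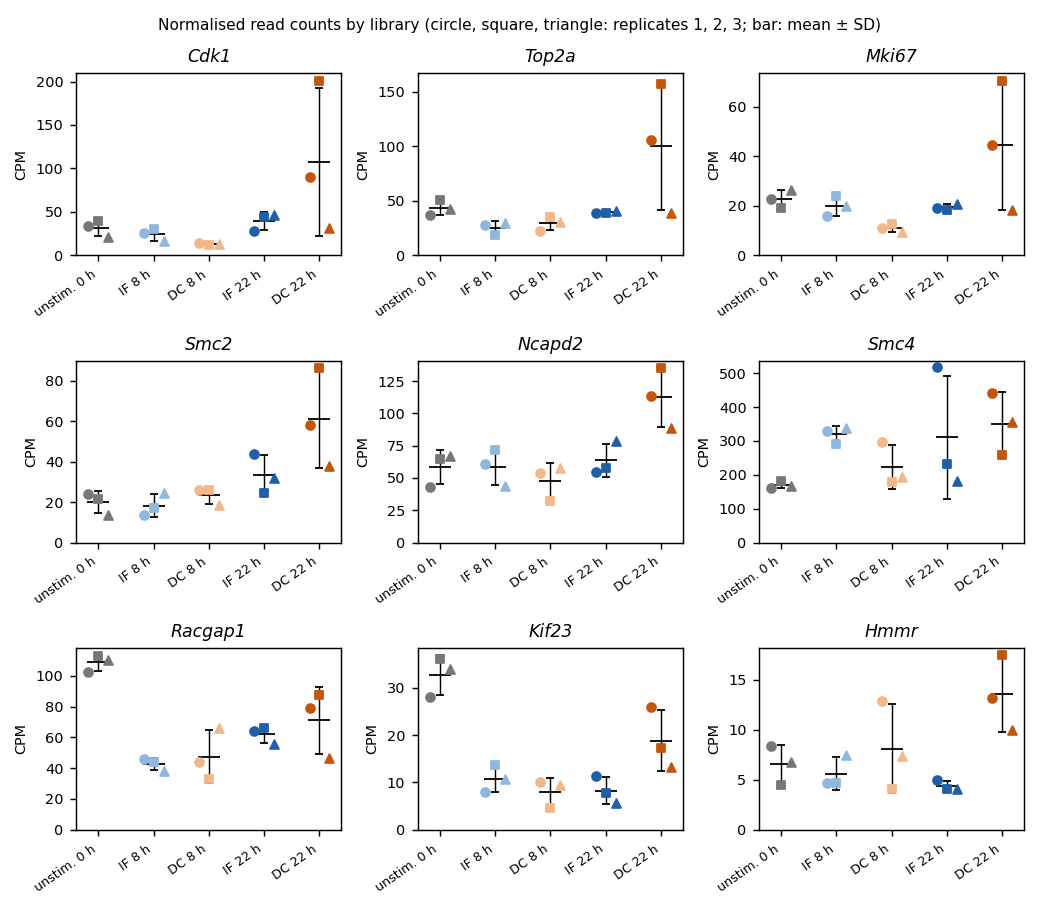
CPM (y axes, linear from 0, scaled per gene) of 9 members in the 5 groups (x axes); symbols are replicates 1, 2 and 3 and bars the mean ± SD. Racgap1 and Kif23 are highest in unstimulated cells, while Cdk1, Top2a and Mki67 are highest in DC 22 h replicates 1 and 2.

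Chromosome structure genes, 8 in number, gave 4 of the 5 calls at 22 h with DC against unstimulated cells, and 8 of 8 were higher there at an unadjusted p under 0.05 (11.4% of all genes), with a median of 1.16. Without DC 22 h replicate 2 this was 5 of 8 (9.38% of all genes), with a median of 0.78. Top2a, topoisomerase II alpha, untangles sister DNA (chr11:98992943-99024189, minus strand). It was measured at 37.3, 51.1 and 42.1 CPM before stimulation, at 27.7, 18.2 and 30.01 CPM with IF and 22.4, 35.3 and 30.2 CPM with DC at 8 h, and at 38.7, 39.2 and 40.2 CPM with IF and 106, 157 and 39.1 CPM with DC at 22 h. The 8 h values were all below the unstimulated ones, the IF 22 h libraries lay within that range, and DC 22 h replicates 1 and 2 were far above it. Top2a rose with DC from 8 h to 22 h, log2 fold change 1.78 ± 0.36, adjusted p = 0.0286, and against unstimulated cells, log2 fold change 1.21 ± 0.35, adjusted p = 0.0428; the second call was also lost with the replicate number as a block (adjusted p = 0.0605). It shares exonic bases with Gm23451. Mki67, which encodes the Ki-67 coat protein of mitotic chromosomes (chr7:135689784-135716361, minus strand), read 22.6, 19.2 and 26.3 CPM unstimulated, 15.7, 23.9 and 20.1 and 11.1, 12.8 and 9.54 CPM at 8 h with IF and DC, and 19.2, 18.4 and 20.9 and 44.5, 70.6 and 18.2 CPM at 22 h. The DC 8 h values were the lowest, and DC 22 h replicates 1 and 2 the highest. Mki67 rose with DC between the times, log2 fold change 1.99 ± 0.35, adjusted p = 0.0189, and its difference between DC 22 h and unstimulated cells was log2 fold change 0.97 ± 0.34, adjusted p = 0.0997. A processed pseudogene resembles its 3′ end.

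The condensins, which compact mitotic chromosomes, are represented by Smc2, Smc4, Ncapd2, Ncapg and Ncaph. Smc2, a core subunit shared by both condensins (chr4:52439243-52488260, plus strand), was measured at 24.2, 21.7 and 13.7 CPM before stimulation, at 13.6, 16.9 and 24.4 CPM with IF and 25.8, 25.8 and 18.5 CPM with DC at 8 h, and at 43.9, 24.7 and 31.7 CPM with IF and 58.3, 86.4 and 38.1 CPM with DC at 22 h. All 6 libraries at 22 h were above all unstimulated ones. From 19.9 ± 5.47 CPM it rose to 60.9 ± 24.2 CPM with DC at 22 h, log2 fold change 1.61 ± 0.32, adjusted p = 0.00551, and that call held in all 12 alternatives run (adjusted p at most 0.0356). With IF at 22 h the difference was log2 fold change 0.74 ± 0.32, adjusted p = 0.197. Ncapd2, a subunit of condensin I (chr6:125168007-125191701, minus strand), read 43.2, 65.1 and 66.8 CPM unstimulated, 61.2, 71.3 and 43.4 and 54.0, 32.0 and 57.4 CPM at 8 h with IF and DC, and 54.3, 58.0 and 78.4 and 113, 135 and 88.9 CPM at 22 h. The 3 DC libraries at 22 h were above all 12 others. Ncapd2 was higher at 22 h with DC than before stimulation, log2 fold change 0.95 ± 0.26, adjusted p = 0.0331, and than at 8 h, log2 fold change 1.23 ± 0.26, adjusted p = 0.0432, and it shares exonic bases with a small RNA gene, Scarna10, and with Gm28967. Smc4, the partner of Smc2 (chr3:69004738-69034623, plus strand), was measured at 161, 181.99 and 168 CPM before stimulation, at 329.9, 291 and 338 CPM with IF and 298, 178 and 193 CPM with DC at 8 h, and at 518, 232 and 182.3 CPM with IF and 441, 257 and 356 CPM with DC at 22 h. Here every stimulated library was above the unstimulated mean of 171 ± 10.5 CPM, at 8 h as well, and IF 22 h replicate 1 was the highest. The difference was log2 fold change 1.04 ± 0.31, adjusted p = 0.0489 at 22 h with DC, log2 fold change 0.91 ± 0.31, adjusted p = 0.0867 at 8 h with IF and log2 fold change 0.87 ± 0.31, adjusted p = 0.115 at 22 h with IF. Against unstimulated cells at 22 h with DC, the calls of Ncapd2 and Top2a were lost when DC 22 h replicate 1 or 2 or any of the 3 unstimulated replicates was left out, and that of Smc4 without DC 22 h replicate 1 or 3 or any unstimulated replicate. Ncapg had the highest fold change of the list at 22 h with DC against unstimulated cells, log2 fold change 2.65 ± 0.85, adjusted p = 0.0678, and did not pass. Its last 500 bases all match Lcorl, a gene on the opposite strand, so the reads of both cannot be told apart without knowing whether counting used strand.

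Other genes of mitosis outside the 53, from a list of 120 of which 119 could be tested, were compared in the same way. At 22 h with DC against unstimulated cells, 8 rose and 2 fell (3.41% and 4.35% of all genes), with a median of 0.46 (members 0.97, all genes 0.04). The 5 with the smallest p-value were Cenpm, a centromere protein gene (log2 fold change 2.00 ± 0.46, adjusted p = 0.0131), Fbxo5, an inhibitor of the anaphase-promoting complex (log2 fold change 1.20 ± 0.29, adjusted p = 0.0162), Mybl2, the B-Myb subunit of the MMB activator of mitotic genes (log2 fold change 2.99 ± 0.72, adjusted p = 0.0171), the septin gene Sept9, which fell (log2 fold change -0.69 ± 0.18, adjusted p = 0.0275), and E2f1, a transcription factor of the G1/S transition (log2 fold change 1.81 ± 0.48, adjusted p = 0.0278). E2f1 was measured at a mean of 38.5 ± 26.4 CPM with DC at 22 h and 11.0 ± 1.48 CPM before stimulation. At 8 h with IF, 6 of 119 fell and 0 rose (4.72% and 3.04% of all genes), with the smallest p-values in Sept9, the anaphase-promoting complex genes Anapc11 and Anapc16, E2f1 and the kinetochore gene Kntc1. At 8 h with DC, 3 of 119 fell, Sept9, Anapc11 and Anapc16, and 0 rose (4.07% and 2.75% of all genes). E2f1 also fell at 8 h with IF (log2 fold change -2.51 ± 0.59, adjusted p = 0.0164) and rose from 8 h to 22 h with IF (log2 fold change 3.43 ± 0.58, adjusted p = 0.0083) and with DC (log2 fold change 2.31 ± 0.48, adjusted p = 0.0399). Between the stimuli 0 of the 119 passed by edgeR at either time, with 1 higher and 7 lower in IF at an unadjusted p under 0.05 at 8 h (3.16% and 5.11% of all genes), and 4 higher and 17 lower at 22 h (7.11% and 8.18%). DESeq2 called 1 lower at 8 h (1.26%), and 1 higher and 2 lower at 22 h (2.4% and 2.8%).

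The 53 DNA replication genes act in S phase, ahead of mitosis. At 22 h with IF, 5 of them rose against unstimulated cells (Gins2, Mcm6, Mcm4 and Mcm5 among them; 2.63% of all genes) and 0 fell, with a median of 0.76 against -0.21 for the mitosis genes. With DC at 22 h, 25 replication genes rose against unstimulated cells (median 1.19; 3.41% of all genes rose) where 5 mitosis genes did (median 0.97). From 8 h to 22 h with IF, 9 replication genes rose (median 1.10) and 0 mitosis genes, where 0.637% of all genes did. With DC, 17 replication genes rose (median 1.30) and 9 mitosis genes (median 1.48), where 0.379% of all genes did. Mcm4, a subunit of the replicative helicase, was log2 fold change 0.94 ± 0.24, adjusted p = 0.0281 with IF at 22 h against unstimulated cells and log2 fold change 1.22 ± 0.24, adjusted p = 0.00482 with DC. The difference between both lists was not tested, and the comparisons with unstimulated cells share those 3 libraries. The median SE was larger over the mitosis genes, 0.497 against 0.374 for the replication genes at 22 h with DC against unstimulated cells. From 8 h to 22 h with IF it was 0.513 against 0.388. The numbers that passed in both lists are thus not on an equal footing.

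Members with and without a CHR match in the promoter had similar medians between 8 h and 22 h with DC, 1.502 over 34 genes and 1.41 over 11. At 22 h against unstimulated cells with DC they were 0.85 and 0.89, and at 8 h with DC -0.65 and -0.66. With IF at 8 h the medians were -0.31 with a match and -0.66 without. From 8 h to 22 h with IF they were 0.19 and 0.46. For IF set against DC they were 0.28 and -0.07 at 8 h, and -1.07 and -0.79 at 22 h. The difference between members with and without a match was not tested. Racgap1 and Kif23, which fell, and Cdk1 and Bub1, which rose with DC, carry CHR and CCAAT matches, whereas Mad2l1, which also rose, carries neither, and Kif15 a CHR without a CCAAT box.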

How the data were processed

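Bulk libraries were made by an adapted CEL-seq protocol (poly(A)-primed reads near the 3′ end), per the labels' protocols. The deposited values are counts per gene, whole numbers without normalization, one table a library; BWA and the mm10 build are named in the submitters' processing notes, while annotation, strand use and the handling of molecular identifiers are not given in the sources used here. Counts were tested with edgeR 4.0.16 in R 4.3.3: genes were kept by filterByExpr (minimum count 10, minimum total 15), scaled by TMM, and fitted with 5 group means over all 15 libraries by quasi-likelihood. Tests were two-sided and adjusted by Benjamini-Hochberg over all 10831 genes within each of 9 comparisons, with a threshold of 0.05 and a prior count of 0.125. DESeq2 1.42.0 was an alternative. The fit was first run on simulated counts with a common dispersion and no further differences between replicates. That run does not show how the fit behaves on these libraries. Replicate pairs differed beyond counting noise (chi-square per degree of freedom 9.50 to 98.1), so none was counted once.

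The members and gene lists were chosen with earlier results of these data known. Values in every library were given for members past the threshold, up to 12 a comparison by p-value, and for the member with the highest mean CPM in each role; a few others were named after their values were seen. From the other lists, up to 5 genes a comparison with the smallest p-value among those past the threshold could be named. The titles tag replicates Don1 to Don3 in all groups without saying what the tag means. Same-tagged libraries deviated together between DC at 8 h and at 22 h and between no other pair of groups (DC correlations over genes of deviations from group means 0.16, 0.49 and 0.30). A fit with the tag as a replicate block is given wherever it changed a call. Positions and exon overlaps are from GENCODE vM21 on GRCm38, the mm10 assembly. Exons were shared with another gene by 15 members, 13 on the opposite strand, and for 15 members at least 100 of the last 500 bases matched another transcript at 95% identity or more.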

Additional observations from a re-analysis of the deposited data

Results flagged for a closer look

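Hmmr, a spindle pole gene, was singled out because its level differed between both stimuli at the same time: the log2 fold change of IF against DC at 22 h was -1.63 (edgeR adjusted p = 0.0396), with all 3 IF libraries below all 3 DC libraries. The adjusted p was above 0.05 without IF 22 h replicate 2 or 3 (0.185 and 0.176), without DC 22 h replicate 1 or 2 (0.1 and 0.113) and with only those groups in the fit (0.0611), and it ran from 0.00465 to 0.896 over 13 alternatives, all with the same direction. The 0.896 came from leaving out IF 22 h replicates 2 and 3 together (log2 fold change -1.44), where 1 library was left in the group and its spread was taken from the other groups. Mitochondrial ribosomal RNA differed in IF 22 h replicates 2 and 3 (0.179% and 0.146% of counts, against 1.82% to 4.49% in the other libraries), and its part in the result was not tested.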

How the results depend on the processing

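Direction held in every alternative run for the 20 gene results named above, and no result reversed. Of the repeated gene tests, 165 kept their side of the threshold and 86 lost it. The number of members that passed depended on the setting. The share of all genes called in the same fit, in both directions, follows each number in parentheses. With DESeq2 it was 19 for DC 22 h against 8 h (1.94%), 11 for DC 22 h (11.7%), 6 for DC 8 h (10.8%), 6 for IF 8 h (11.7%) and 3 for IF 22 h (9.84%) against unstimulated cells, 9 for IF against DC at 22 h (5.2%) and 1 for the interaction (0.369%). Without the filter on low counts the numbers in that order were 28 (1.47%), 20 (7.46%), 9 (6.59%), 9 (6.82%), 4 (6.43%), 20 (4.12%) and 5 (0.905%), and 1 for IF 22 h against 8 h (2.93%). Fitted on just the groups in each comparison, they were 0 for DC 22 h against 8 h (0%), 7 for DC 8 h (8.34%), 9 for IF 8 h (13.7%) and 3 for IF 22 h (9.93%) against unstimulated cells, and 0 for IF against DC at 22 h (0.687%). Scaled by library size alone, 19 passed for DC 22 h (14.6%) and 2 for IF 22 h (7.74%) against unstimulated cells and 2 for IF against DC at 22 h (2.47%), where DESeq2 size factors gave 2 (2.44%). Library size alone moved the median of all genes against unstimulated cells to 0.26 (IF 8 h), 0.30 (DC 8 h), 0.22 (IF 22 h) and 0.37 (DC 22 h), with member medians of -0.15, -0.41, -0.02 and 1.31. At an adjusted p under 0.1, a setting chosen after seeing the data, 12 passed for DC 22 h (12%), 6 for DC 8 h (10.7%), 6 for IF 8 h (12.3%) and 3 for IF 22 h (9.72%) against unstimulated cells, and 6 for IF against DC at 22 h (4.07%). Leaving out single replicates gave 0 to 23 for DC 22 h against 8 h, 1 to 18 for DC 22 h, 2 to 3 for DC 8 h and 1 to 2 for IF 8 h against unstimulated cells, 0 to 14 for IF against DC at 22 h and 0 to 2 for the interaction. Leaving out IF 22 h replicates 2 and 3 together gave 0 for IF against DC at 22 h; that group is then 1 library, assumed to vary like the other groups, so the loss of calls says nothing about those replicates. Causes were not tested.

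With the replicate block, 6 members passed for DC 22 h against 8 h (0.452% of all genes; with the 2 DC groups alone, a fit chosen after seeing the data, 10 and 1.63%). Against unstimulated cells, 4 passed for DC 22 h (7.25%), 2 for DC 8 h (6.59%), 1 for IF 22 h (5.89%) and 3 for IF 8 h (7.08%). The calls the block changed are given with the results. Outside the DC pair, correlations of libraries with the same Don tag ran from -0.244 to 0.140; the tag is in the titles of all 5 groups, and whether it marks a shared animal is not given. Members with few reads, such as Bub1 with 1 to 4 at 8 h with DC, are limited by depth.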
